A study of Mus musculus with 16 samples.

Results

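The antioxidant enzymes and NRF2 targets described here are 43 genes, chosen by their symbols in the probe table of the series, with no measured value in the rule. They comprise the superoxide, peroxide, glutathione and thioredoxin systems, the NRF2 axis and the metallothioneins. Of the 43 genes, 40 had a probe under their symbol and 33 had a probe that passed the filter for testing, which asked for 4 or more of 16 arrays with detection p below 0.01. The whole array held 16593 named genes, of which 6902 passed the same filter. Male mice of 4 genotypes gave left ventricular RNA, from 4 hearts per genotype with 1 array for each heart, so every mean has n = 4. Littermate controls carried no transgene, TRAF2LC hearts carried the TRAF2LC transgene, and IkBaDN hearts carried IκBαΔN. Double transgenic hearts carried both. Each transgene was under the Myh6 promoter, which is active in cardiomyocytes, while the RNA came from all cells of the ventricle. Age, strain and treatment of the mice are not stated in the labels.

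Cells dispose of reactive oxygen in steps. Superoxide dismutases turn superoxide into hydrogen peroxide, and catalase, the glutathione peroxidases and the peroxiredoxins reduce the peroxide. Glutathione and thioredoxin carry the electrons, and glutathione S-transferases join glutathione to reactive compounds. NRF2, a transcription factor held back by KEAP1, raises many of these genes after binding, as a pair with a small MAF protein, to the antioxidant response element. TRAF2 is an adaptor of the tumour necrosis factor receptors that leads to NF-κB among other pathways. IκBα holds NF-κB in the cytoplasm, and the form without its N terminus is known as a lasting inhibitor. Sod2, the dismutase of mitochondria, is a known NF-κB target.

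Heart muscle genes were present. Of 9 cardiomyocyte markers 8 passed the filter, and Myh6, Myl2, Myl3 and Atp2a2 were detected on all 16 arrays. The atrial genes Myl7, Myl4, Sln and Nppa were also detected on all 16, although the labels name left ventricle. Their control means were 10.47, 14.58, 13.92 and 15.10 in log2 intensity. Whether atrial tissue was part of the samples was not tested. Mean deposited intensity was 129 to 375 by array, and between 7948 and 9397 probes were detected on an array. The array IkBaDN replicate 2 was the dimmest, with IkBaDN replicate 3 next at a mean of 204. The array TRAF2LC replicate 4 stood apart in another way. Over the 8 macrophage markers that passed the filter, of 15 listed, its median lay 0.99 above the control mean on the log2 scale, against 0.23 to 0.31 on the other TRAF2LC arrays, -0.11 to 0.10 on controls, -0.05 to 0.32 on IkBaDN and -0.06 to 0.17 on double transgenic arrays. Adgre1, Cd163 and Ctss were detected on 0 arrays. The same array was the lowest of the 16 for 7 and the highest for 5 of the 33 genes. Values without it are given for several genes that it moved, such as Nqo1, Gstk1 and Sod2, but not for all. Gstm5, Gstm1 and Prdx4 read 7.26, 8.70 and 9.74 on it, beside control means of 7.97, 9.37 and 10.16, and have no such value here.

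Because NRF2 acts through a short element near many of these genes, the promoter windows of 3 targets are shown first. Among the classic NRF2 targets of the 43 genes they came nearest to a difference between genotypes. Gstp1 and Nqo1 did so by their brightest probe and Srxn1 only by its dimmer probe. Txnrd2, not counted among those targets, and Sqstm1 of a further list came nearer than Nqo1. Windows of 300 bases, from 250 before to 50 after the start of transcription, came from RefSeq on GRCm38.p6, and 37 of the 43 genes had at least 1. Capitals mark TGACNNNGC, the core of the antioxidant response element, or TGANTCAGC, the core shared with small MAF sites, on either strand. A site spelled TGACTCAGC counts for both, and the latter motif was added after the windows had been seen. Srxn1 (chr2:152105274-152105573, plus strand) holds 1 of each, Gstp1 (chr19:4037863-4038162, minus strand) holds TGANTCAGC, and Nqo1 (chr8:107403156-107403455, minus strand) holds neither within this window.
Srxn1: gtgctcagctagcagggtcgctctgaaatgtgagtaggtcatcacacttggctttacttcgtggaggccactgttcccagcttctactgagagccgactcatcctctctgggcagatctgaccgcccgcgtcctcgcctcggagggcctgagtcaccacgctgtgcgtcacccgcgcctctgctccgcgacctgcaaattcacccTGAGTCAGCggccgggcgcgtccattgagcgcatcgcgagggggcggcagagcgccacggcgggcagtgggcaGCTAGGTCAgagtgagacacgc
Gstp1: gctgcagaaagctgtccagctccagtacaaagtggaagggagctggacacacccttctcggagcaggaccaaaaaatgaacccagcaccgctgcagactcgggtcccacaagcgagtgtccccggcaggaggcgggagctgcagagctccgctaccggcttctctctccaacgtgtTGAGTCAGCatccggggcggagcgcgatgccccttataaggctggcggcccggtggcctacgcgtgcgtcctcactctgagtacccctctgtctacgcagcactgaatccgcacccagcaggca
Nqo1: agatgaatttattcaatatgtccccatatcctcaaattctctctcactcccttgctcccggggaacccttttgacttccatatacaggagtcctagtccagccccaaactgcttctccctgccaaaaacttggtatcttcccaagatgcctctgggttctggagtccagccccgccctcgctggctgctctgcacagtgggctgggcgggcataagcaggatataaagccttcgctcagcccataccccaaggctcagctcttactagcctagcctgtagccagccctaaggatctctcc
In Srxn1 the match to TGANTCAGC, TGAGTCAGC, begins 45 bases before the start, and in Gstp1 the same letters begin 74 bases before it. Over the genes listed here 10 of 37 (27.0%) held TGACNNNGC in a window, namely Sod1, Prdx1, Txnrd1, Gclm, Gsta3, Gstm5, Mgst1, Srxn1, Nfe2l2 and Mt2, against 14.0% of 27025 genes in the table and 12.4% of its 32851 windows. TGANTCAGC was found for 4 of 37, Prdx1, Gstp1, Srxn1 and Mt2, against 1.37% of genes and 1.19% of windows in the table. A match is a string of letters and says nothing of binding in these hearts.

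By its brightest tested probe, none of the 33 genes passed the test in any comparison of genotypes, with limma and Benjamini-Hochberg adjustment over all 9449 tested probes (adjusted p under 0.05). In TRAF2LC against control, 0 of 33 were called while 1.12% of all genes were, and 5 of 33 had an unadjusted p under 0.05 against 11.2% of all genes. In IkBaDN against control, the calls were 0 against 0.493%, and the unadjusted count was 0 of 33 against 7.69%. In double transgenic against control, they were 0 against 0.956%, and 2 of 33 against 11.2%. The share of all genes called was small in these 3 comparisons, so 0 calls among 33 is close to that background.

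The background was higher where TRAF2LC hearts were compared with the other transgenic genotypes, and lower between double transgenic and IkBaDN hearts. In double transgenic against TRAF2LC hearts, 3.10% of all genes were called and 0 of 33 here, with 5 of 33 below an unadjusted 0.05 against 16.7% of all genes. In TRAF2LC against IkBaDN hearts, 3.61% of all genes were called and 0 of 33 here, with 4 of 33 against 17.1% unadjusted. In double transgenic against IkBaDN hearts, 0.0145% of genes were called, 0 of 33 here, and the unadjusted count was 1 of 33 against 5.72%. The interaction, the part of the double transgenic change that the 2 single changes do not add up to, called 0.0145% of genes and 0 of 33, with 3 of 33 against 6.46% unadjusted. The test of any difference among the 4 genotypes called 3.14% of genes and 0 of 33, with 3 of 33 (9.09%) against 15.5% unadjusted.

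A missed threshold does not show that levels were alike, so the interval of each difference is given. Values are log2 intensities, in which a difference of 1 is 2-fold, and the error of a difference is the standard error (SE) of the fit. The 95% interval of the change lay within 1.5-fold either way for 27 of 33 genes in TRAF2LC hearts, 29 in IkBaDN hearts and 29 in double transgenic hearts against control, against 71.8%, 73.9% and 71.7% of all genes. It lay within 2-fold for 33, 32 and 33 of them. The median spread within a genotype was 0.19 on the log2 scale over the 33 genes and 0.22 over all 6902. Median log2 changes against control were -0.05, -0.03 and -0.04, with 24, 22 and 21 of 33 genes lower, beside -0.01, -0.01 and -0.00 over all genes. The 3 comparisons share the control arrays.

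**Figure D1:**
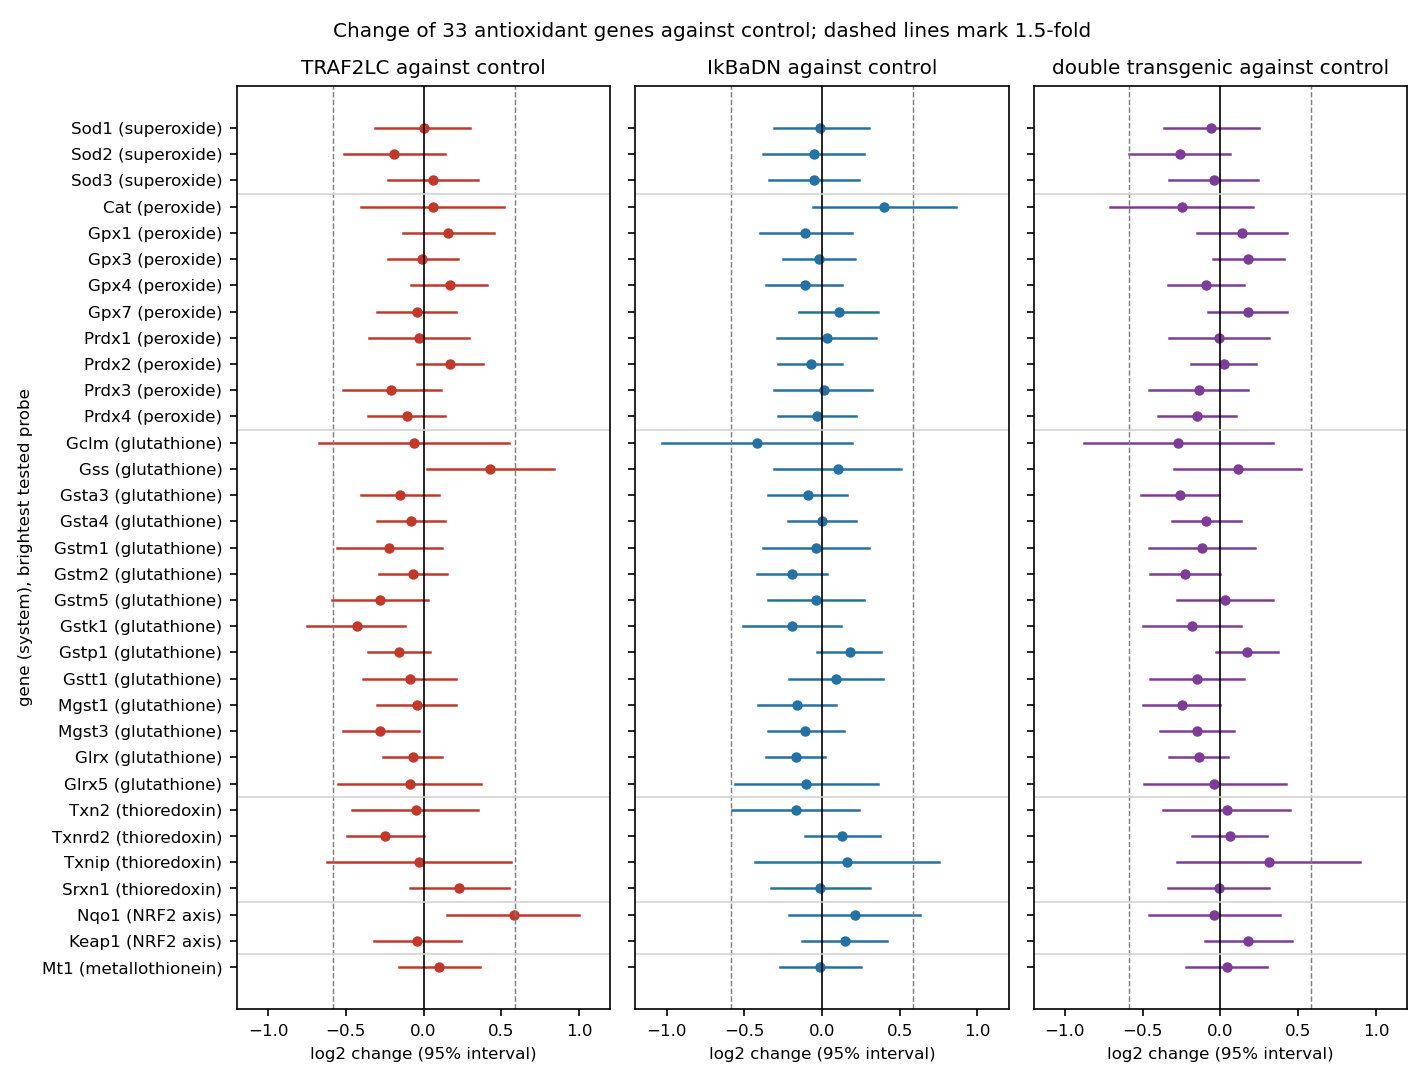
Log2 change of the 33 genes against control in each transgenic genotype, grouped by system, with points for the change of the brightest tested probe and bars for its 95% interval from the limma fit over 16 arrays. Dashed lines mark 1.5-fold. Most intervals stay between those lines, and Nqo1 and Gstk1 in TRAF2LC hearts lie farthest out in that genotype.

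All 3 superoxide dismutases were measured on all 16 arrays and none passed the test. Sod2, the manganese enzyme of the mitochondrial matrix, read 11.95, 11.99, 12.05 and 11.99 in log2 intensity on control arrays. On TRAF2LC arrays it read 12.02, 11.86, 11.82 and 11.52, on IkBaDN arrays 11.81, 11.84, 12.20 and 11.91, and on double transgenic arrays 11.21, 11.95, 11.83 and 11.94. The controls lay close together (SD 0.04), while TRAF2LC replicate 4 and double transgenic replicate 1 were the lowest arrays and every transgenic genotype overlapped the controls. The log2 change was -0.19 ± 0.16 (SE) in TRAF2LC hearts, -0.05 ± 0.16 in IkBaDN hearts and -0.26 ± 0.16 in double transgenic hearts, with adjusted p of 0.744, 0.971 and 0.577. Single arrays carried much of this, since without TRAF2LC replicate 4 the first was -0.09 (0.992), and without double transgenic replicate 1 the last was -0.09 (0.901). In IkBaDN hearts leaving out 1 array of that genotype gave values down to -0.14, reached without replicate 3, and up to -0.01, reached without replicate 1. Sod1, the cytosolic copper-zinc enzyme, had log2 differences of -0.00, -0.01 and -0.06 against control in the same order, and Sod3, the secreted enzyme, of 0.06, -0.05 and -0.04.

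Of 9 measured genes for peroxide removal, 4 were higher and 5 lower in each comparison with control, and none passed the test. Catalase (Cat), which splits hydrogen peroxide in peroxisomes, was the least certain, because its probe was detected on only 8 arrays: 1 control, 2 TRAF2LC, 4 IkBaDN and 1 double transgenic. It read 5.24, 5.30, 5.66 and 5.58 on control arrays, 5.55, 5.83, 5.35 and 5.30 on TRAF2LC arrays, 5.63, 6.11, 6.06 and 5.60 on IkBaDN arrays and 4.78, 5.88, 5.36 and 4.76 on double transgenic arrays. IkBaDN hearts had the highest mean and double transgenic hearts the lowest, with overlap between all genotypes. The difference of double transgenic from IkBaDN hearts was -0.65 ± 0.22 (adjusted p = 0.850), the change in IkBaDN against control 0.40 ± 0.22 (0.730) and the interaction -0.72 ± 0.31 (0.773). Without the 2 dim IkBaDN arrays the first was -0.42 (0.842) and the IkBaDN change 0.17 (0.969). These values lie near the limit of detection, which was 5.40 to 5.81 across arrays.

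None of the glutathione peroxidases passed. Gpx4, which reduces peroxides within membranes, read 10.70, 10.59, 10.68 and 10.53 on TRAF2LC arrays and 10.50, 10.14, 10.47 and 10.34 on double transgenic arrays. The 2 groups did not overlap, and the difference was -0.26 ± 0.12 in the double transgenic hearts (adjusted p = 0.279). Gpx7, an enzyme of the endoplasmic reticulum, also did not overlap between these groups (0.22 ± 0.12, 0.414). In double transgenic against TRAF2LC hearts 4 of the 33 genes had no overlap, while 10.8% of all genes had none. Gpx3, the secreted enzyme, read 12.52, 12.41, 12.62 and 12.76 on double transgenic arrays and 12.48, 12.29, 12.34 and 12.39 on IkBaDN arrays, a difference of 0.20 ± 0.11 (0.852). Gpx1, the abundant cytosolic enzyme, read 12.54, 12.45, 12.41 and 12.77 against 12.41, 12.15, 12.17 and 12.46 in the same comparison, a difference of 0.24 ± 0.14 (0.866), or 0.11 without the 2 dim IkBaDN arrays (0.930). The arrays of both genes overlapped there.

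Among peroxiredoxins, which reduce peroxide through a reactive cysteine, Prdx2 gave the narrowest spread. Its brightest probe read 13.66, 13.63, 13.58 and 13.58 on control arrays, 13.82, 13.63, 13.76 and 13.93 on TRAF2LC arrays, 13.62, 13.55, 13.44 and 13.57 on IkBaDN arrays and 13.81, 13.62, 13.50 and 13.60 on double transgenic arrays. Every TRAF2LC array lay above every IkBaDN array, by 0.24 ± 0.10 on the mean (adjusted p = 0.216). In that comparison 2 of 33 genes had no overlap against 9.81% of all genes. The dimmer Prdx2 probe had means of 6.39 and 6.55 in the 2 groups, the opposite order. Prdx1, of the cytosol and an NRF2 target, had log2 differences of -0.03, 0.03 and -0.01 from control in the 3 transgenic genotypes, in the order used above. Prdx3, of mitochondria, had -0.21, 0.01 and -0.14, and Prdx4, of the secretory pathway, -0.11, -0.03 and -0.15.

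Of 17 listed glutathione genes 14 were measured, and most lay slightly below control in every transgenic genotype without any passing the test. Lower than control were 13 of 14 in TRAF2LC hearts, 11 in IkBaDN hearts and 11 in double transgenic hearts, with median log2 changes of -0.09, -0.10 and -0.14 beside -0.01, -0.01 and -0.00 over all genes. On single arrays, relative to the median of all genes, the median of the 14 ran from -0.07 to 0.08 on the 4 controls and from -0.21 to -0.08 on the 12 transgenic arrays, all 12 below every control. The controls are shared, so this is 1 observation about 4 control arrays and not 3. Each gene was also measured from the mean of these same 4 arrays. That centres the controls near 0, while the transgenic arrays carry the error of that mean, so part of the separation is built in. With median scaling in place of quantile normalization 10 of 12 transgenic arrays lay below every control. Without TRAF2LC replicate 4, 12 of 14 genes were lower in TRAF2LC hearts and the median was -0.13. Without control replicate 2 the TRAF2LC median was -0.16, and without control replicate 3 the IkBaDN median was -0.04. Some lists of cell type markers were low in the same genotypes and others were not. In the same order, median differences from control were -0.08, 0.06 and -0.07 for cardiomyocyte and 0.46, 0.08 and -0.00 for macrophage markers. Fibroblast markers had 0.12, -0.04 and -0.01, and the 3 measured smooth muscle markers -0.25, -0.05 and -0.02. The smooth muscle medians hide a split. Acta2 was higher by 1.01 in double transgenic hearts and called (adjusted p = 0.0129), and by 0.66 in IkBaDN hearts, while the other 2 were lower in both. Of the 8 macrophage markers 1 was called, higher in TRAF2LC hearts (0.0255). Of all genes 0.956% were called in double transgenic and 1.12% in TRAF2LC hearts against control. Endothelial markers had 0.01, 0.03 and 0.06, and red blood cell markers 0.01, -0.14 and 0.08. The 4 atrial cardiomyocyte markers had median differences from control of -0.20, -0.25 and -0.19, with array medians of -0.08 to 0.09 on control, -0.53 to 0.01 on TRAF2LC, -0.42 to -0.08 on IkBaDN and -0.33 to -0.04 on double transgenic arrays. Of 6 adipocyte markers 2 were measured, with medians of -0.35, -0.17 and -0.24 and with control arrays from -0.57 to 0.47, while Plin1, Cidec and Retn were detected on 0 arrays. The part of these markers in the glutathione medians was not tested.

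**Figure D2:**
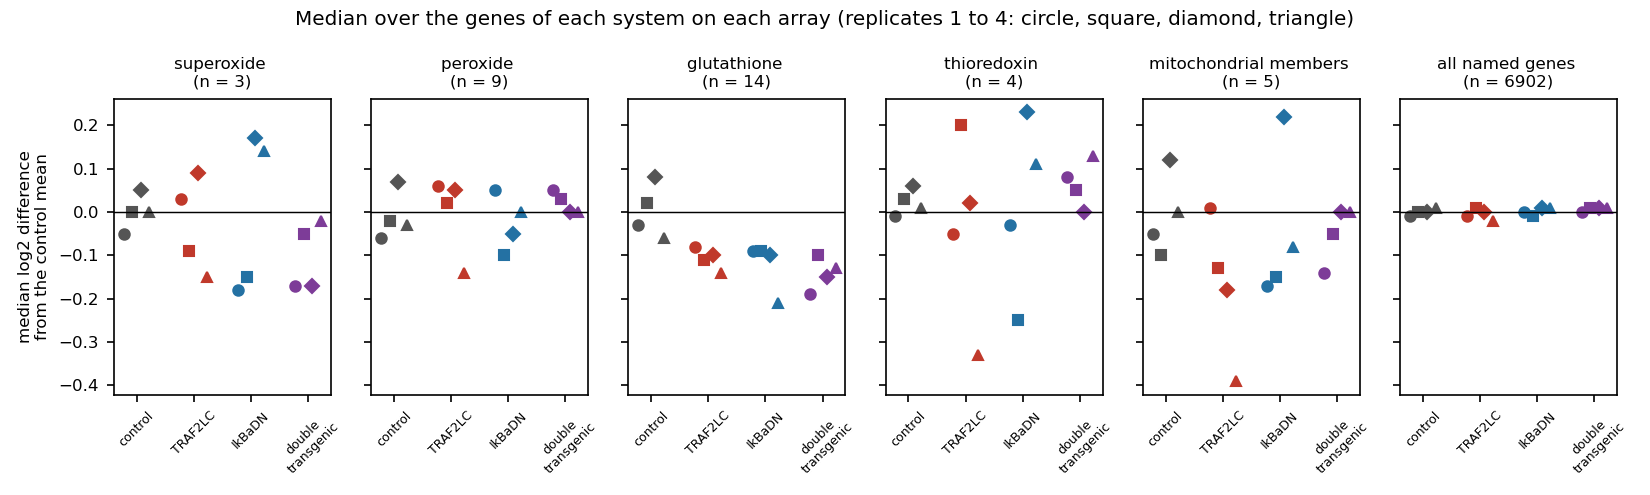
Median log2 difference from the control mean over the genes of each system on each array, by genotype, with all named genes at the right for scale. The glutathione medians of the 12 transgenic arrays lie below the 4 controls, and the other systems overlap.

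Gstp1, the pi class glutathione S-transferase and an NRF2 target, came nearest to the threshold. Its brightest probe read 11.94, 12.03, 12.17 and 11.90 on control arrays and 11.81, 11.78, 11.97 and 11.84 on TRAF2LC arrays. It read 12.16, 12.33, 12.13 and 12.11 on IkBaDN arrays and 12.19, 12.23, 12.19 and 12.11 on double transgenic arrays. TRAF2LC arrays were all below both genotypes that carry IkBaDN, and the controls lay between and overlapped each. The difference of double transgenic from TRAF2LC hearts was 0.33 ± 0.10 (1.26-fold, adjusted p = 0.0766), and that of TRAF2LC from IkBaDN hearts was -0.33 ± 0.10 (adjusted p = 0.0660). Against control the changes were -0.16 ± 0.10 in TRAF2LC hearts, 0.18 ± 0.10 in IkBaDN hearts and 0.17 ± 0.10 in double transgenic hearts.

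The other Gstp1 probe gave the same directions, 0.33 ± 0.10 for double transgenic against TRAF2LC (adjusted p = 0.0968) and -0.25 ± 0.10 for TRAF2LC against IkBaDN (0.215), again with no overlap. Some settings carried Gstp1 past the threshold. With an offset of 50 in the background step the adjusted p was 0.0464 and 0.0411 in these comparisons, and with only probes detected on all 16 arrays it was 0.0486 and 0.0461. With median scaling the difference of TRAF2LC from IkBaDN hearts was 0.01, but that scaling moved the median of all genes in this comparison to 0.36. In the test of any difference among the genotypes Gstp1 had the smallest adjusted p of the 33 genes, 0.129. The mouse genome holds a close copy of Gstp1 and families of similar Gstm and Gsta genes, and cross-hybridization between them was not tested.

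Gstk1, the transferase of mitochondria and peroxisomes, read 11.93, 12.09, 12.05 and 12.24 on control arrays and 11.80, 11.75, 11.89 and 11.14 on TRAF2LC arrays. It read 11.69, 12.10, 11.94 and 11.81 on IkBaDN arrays and 11.78, 12.06, 11.89 and 11.85 on double transgenic arrays. All TRAF2LC arrays lay below the controls, with replicate 4 far below the other 3. It was the only one of the 33 genes without overlap in this comparison, against 7.45% of all genes. The change was -0.43 ± 0.15 (adjusted p = 0.260), and without TRAF2LC replicate 4 it was -0.27 (0.667). The interaction of Gstk1 was 0.44 ± 0.21 (adjusted p = 0.795), and 0.28 without that array. In IkBaDN against control 0 of 33 genes had no overlap, against 5.40% of all genes, and in double transgenic against IkBaDN 0 of 33 against 2.94%.

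Mgst3, a microsomal transferase, read 13.38, 13.34, 13.14 and 13.21 on control arrays and 13.30, 12.97, 12.91 and 12.79 on TRAF2LC arrays, a change of -0.28 ± 0.12 (adjusted p = 0.394). The groups overlapped through TRAF2LC replicate 1, and leaving out 1 array gave changes of Mgst3 from -0.38 to -0.21. Gsta3, an alpha class transferase and NRF2 target, read 7.51, 7.45, 7.68 and 7.32 on control arrays and 7.29, 7.31, 7.18 and 7.14 on double transgenic arrays, without overlap and lower in double transgenic hearts, a difference of -0.26 ± 0.12 (0.446). It was the only one of 33 genes without overlap there, against 9.04% of all genes. Mgst1, another microsomal transferase, read 9.22, 9.08, 9.42 and 9.22 against 8.93, 9.12, 8.81 and 9.08, a change of -0.25 ± 0.12 (0.473).

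Gstm2, a mu class transferase, had 3 bright probes. Its brightest read 12.39, 12.64, 12.57 and 12.34 on control arrays, 12.35, 12.34, 12.22 and 12.26 on IkBaDN arrays and 12.22, 12.25, 12.21 and 12.35 on double transgenic arrays. The change was -0.19 ± 0.11 in IkBaDN (adjusted p = 0.730) and -0.23 ± 0.11 in double transgenic hearts (0.454), with overlap in each. The other 2 probes gave -0.22 and -0.34 in IkBaDN and -0.18 and -0.29 in double transgenic hearts, the same direction. Glrx, the cytosolic glutaredoxin that reduces proteins joined to glutathione, read 10.37, 10.34, 10.61 and 10.48 on control and 10.27, 10.35, 10.29 and 10.21 on IkBaDN arrays, a change of -0.17 ± 0.09 (0.716).

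Glutathione synthesis was measured at or near the limit of detection. Gclm, the modifier subunit of glutamate-cysteine ligase, was detected on 13 arrays and ran from 4.63 to 6.60 within the IkBaDN group alone. Its change in IkBaDN hearts, -0.42, had a 95% interval from -1.03 to 0.19, too wide to exclude a 2-fold decrease. Gss, glutathione synthetase, read 6.20, 6.22, 6.24 and 6.35 on TRAF2LC arrays and 6.21, 6.16, 5.53 and 5.40 on control arrays, a change of 0.43 ± 0.19 (adjusted p = 0.435). Only 2 of the 4 control arrays detected it. The dimmer Gss probe gave -0.10 in the same comparison, so the probes disagree in direction. The catalytic subunit Gclc was not detected on any array, and Gsr, which regenerates glutathione, is not analysed here.

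Of 7 listed genes of the thioredoxin system 4 were measured. Txnrd2, the thioredoxin reductase of mitochondria, read 8.59, 8.47, 8.49 and 8.37 on control arrays, 8.49, 8.15, 8.28 and 8.03 on TRAF2LC arrays, 8.63, 8.42, 8.71 and 8.68 on IkBaDN arrays and 8.47, 8.47, 8.49 and 8.72 on double transgenic arrays. Only TRAF2LC replicate 1 reached the level of the other genotypes. TRAF2LC hearts differed from IkBaDN hearts by -0.38 ± 0.12 (1.30-fold, adjusted p = 0.0889), and double transgenic from TRAF2LC hearts by 0.31 ± 0.12 (0.191). Without TRAF2LC replicate 1 the former was -0.46 and passed (adjusted p = 0.0404). Without replicate 4 it was -0.30 (0.230), and with median scaling it was 0.05 where the median of all genes was 0.36, so it lay at -0.31 relative to all genes. The dimmer Txnrd2 probe gave -0.09 ± 0.21 for TRAF2LC against IkBaDN.

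Srxn1, sulfiredoxin, restores peroxiredoxins that peroxide has overoxidized and is an NRF2 target. One of its 2 probes was the only tested probe of the 46 to pass in any comparison. That dimmer probe read 6.12, 6.23, 5.96 and 6.40 on control arrays, 6.18, 6.41, 6.37 and 6.82 on TRAF2LC arrays, 5.81, 5.62, 5.82 and 5.80 on IkBaDN arrays and 6.26, 5.51, 6.22 and 6.14 on double transgenic arrays. Every IkBaDN array lay below every control and every TRAF2LC array, while the double transgenic arrays spread across. The IkBaDN values lay at the limits of detection of those arrays, 5.53 to 5.81, and the probe was detected on 3 of 4 IkBaDN and 3 of 4 double transgenic arrays. It was higher in TRAF2LC than in IkBaDN hearts by 0.68 ± 0.17 (1.60-fold, adjusted p = 0.0318), where 3.44% of all tested probes passed. Over all tested probes the share that passed was 1.04% in TRAF2LC hearts, 0.444% in IkBaDN hearts and 0.910% in double transgenic hearts against control. It was 2.97% in double transgenic against TRAF2LC hearts, 0.0106% in double transgenic against IkBaDN hearts, 0.0212% in the interaction and 2.96% in the test of any difference.

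The brighter Srxn1 probe did not give the same difference. It read 7.15, 7.42, 7.45 and 7.36 on control arrays, 7.36, 7.57, 7.50 and 7.87 on TRAF2LC arrays, 7.13, 7.26, 7.58 and 7.37 on IkBaDN arrays and 7.51, 7.46, 6.88 and 7.49 on double transgenic arrays. TRAF2LC and IkBaDN arrays overlapped, with a difference of 0.24 ± 0.15 (adjusted p = 0.485). With the mean of both probes the difference was 0.46 (adjusted p = 0.0501). The call of the dimmer probe ended without TRAF2LC replicate 2, 3 or 4 (0.0602, 0.0516 and 0.103), without any 1 of the IkBaDN replicates (0.0548 to 0.0846), and without the 2 dim IkBaDN arrays (0.192). Against control the dimmer probe differed by 0.27 ± 0.17 in TRAF2LC (0.632) and by -0.42 ± 0.17 in IkBaDN (0.500).

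Txnip, which binds and inhibits thioredoxin, had the largest spread within a genotype among the genes detected on all 16 arrays, with 10.38, 10.87, 11.38 and 12.06 among the IkBaDN arrays. Its changes against control were -0.03, 0.16 and 0.31, each with a standard error of 0.28. Txn2, mitochondrial thioredoxin, had log2 differences of -0.05, -0.17 and 0.04. The cytosolic pair Txn1 and Txnrd1 had probes that no array detected.

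**Figure D3:**
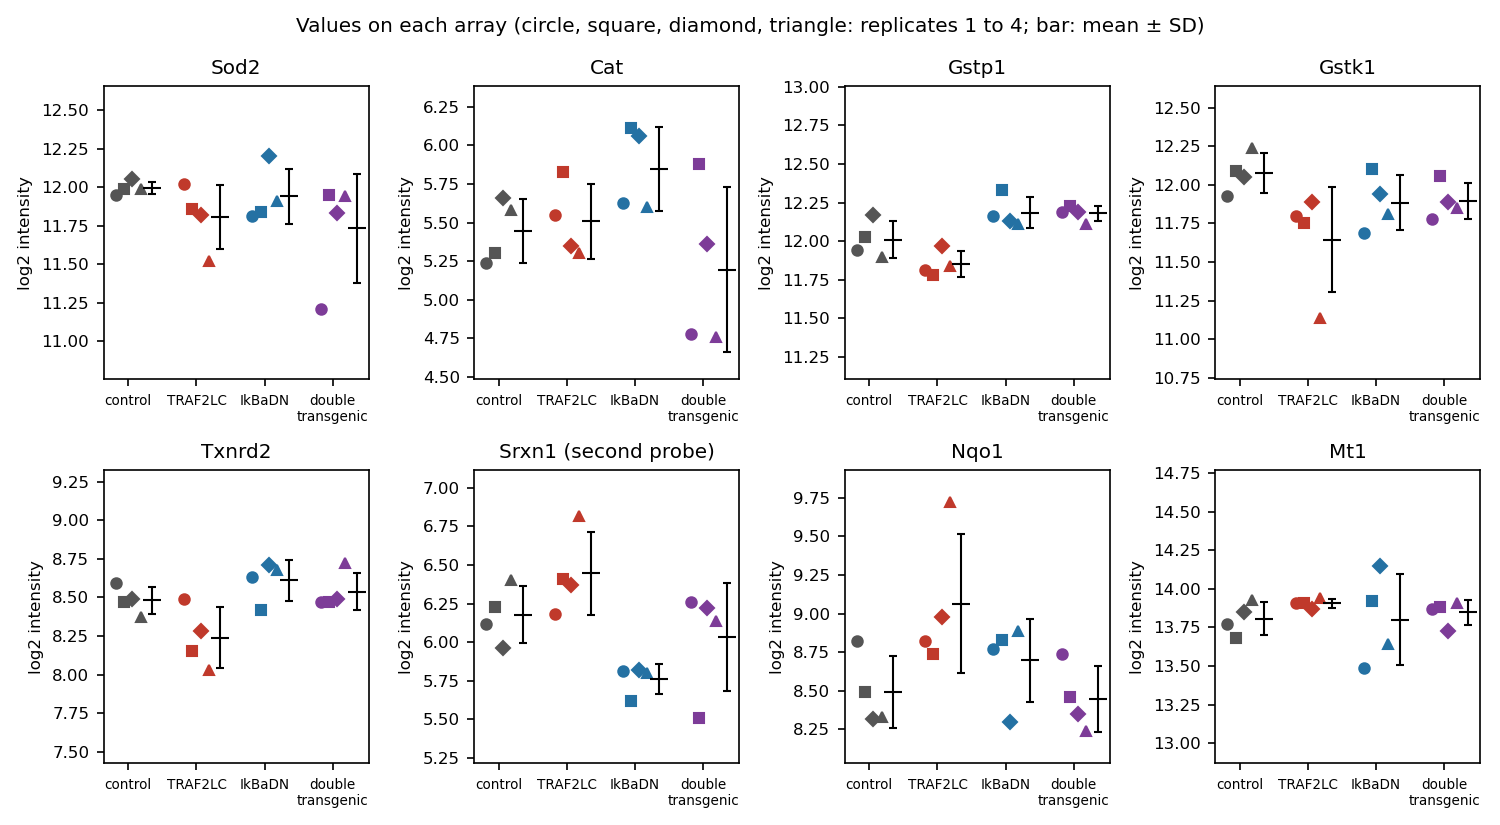
Log2 intensity of 8 probes on each array, by genotype, with marks for replicates 1 to 4 and bars for mean ± SD. Panels have axes of their own. Gstp1 and the dimmer Srxn1 probe have no overlap between TRAF2LC and IkBaDN arrays, and TRAF2LC replicate 4 (triangle) is the extreme array for Gstk1, Nqo1 and Srxn1.

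Nqo1, the quinone reductase long used as a readout of NRF2, read 8.82, 8.49, 8.32 and 8.33 on control arrays and 8.82, 8.74, 8.98 and 9.72 on TRAF2LC arrays. It read 8.77, 8.83, 8.30 and 8.89 on IkBaDN arrays and 8.74, 8.46, 8.35 and 8.24 on double transgenic arrays. TRAF2LC replicate 4 stood well above all other arrays, and the remaining TRAF2LC arrays overlapped the controls. The change in TRAF2LC hearts was 0.58 ± 0.20 (1.49-fold, adjusted p = 0.273), and 0.36 without replicate 4 (0.731). The difference of double transgenic from TRAF2LC hearts was -0.62 ± 0.20 (adjusted p = 0.121), and -0.40 without replicate 4 (0.303). The interaction was -0.83 ± 0.28 (adjusted p = 0.636). On that same TRAF2LC array the macrophage markers were at their highest, and their part in the Nqo1 value was not tested.

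Keap1, which holds NRF2 back, had 4 tested probes, and the brightest had log2 differences of -0.04, 0.15 and 0.18 against control. The other 3 gave -0.13, 0.04 and 0.17, then -0.19, 0.04 and 0.09, then -0.21, -0.16 and -0.03, so the dimmest had the opposite sign in both genotypes that carry IkBaDN. No probe passed. Another tested probe had the opposite sign to the brightest in at least 1 pairwise comparison for Prdx2, Gss, Gpx4, Mgst1, Mgst3, Txnrd2 and Gstm2 as well, again with no call. In double transgenic against IkBaDN hearts the same held for Gstp1 and Srxn1, whose brightest probes hardly differed there. NRF2's own gene, Nfe2l2, was detected on 1 IkBaDN array by 1 of 2 probes and on no other, so its level is only bounded by the limit of detection. Mt1, a metallothionein that binds zinc and copper and scavenges radicals, was detected on all 16 arrays. It read 13.77, 13.68, 13.85 and 13.93 on control, 13.91, 13.91, 13.87 and 13.94 on TRAF2LC, 13.49, 13.92, 14.15 and 13.64 on IkBaDN and 13.87, 13.88, 13.73 and 13.91 on double transgenic arrays. The groups overlapped, IkBaDN hearts spread most, and the changes were 0.10, -0.01 and 0.04 with a standard error of 0.12.

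Txn1, Txnrd1, Gclc, Nfe2l2, Glrx3, Msra and Mt2 had probes that were detected on at most 1 array. Their values lay between 4.39 and 5.86 against detection limits of 5.40 to 5.81, which bounds what this array could measure and does not show that the genes are silent. Prdx5, Prdx6 and Gsr were matched by no probe symbol and are not analysed here.

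**Figure D4:**
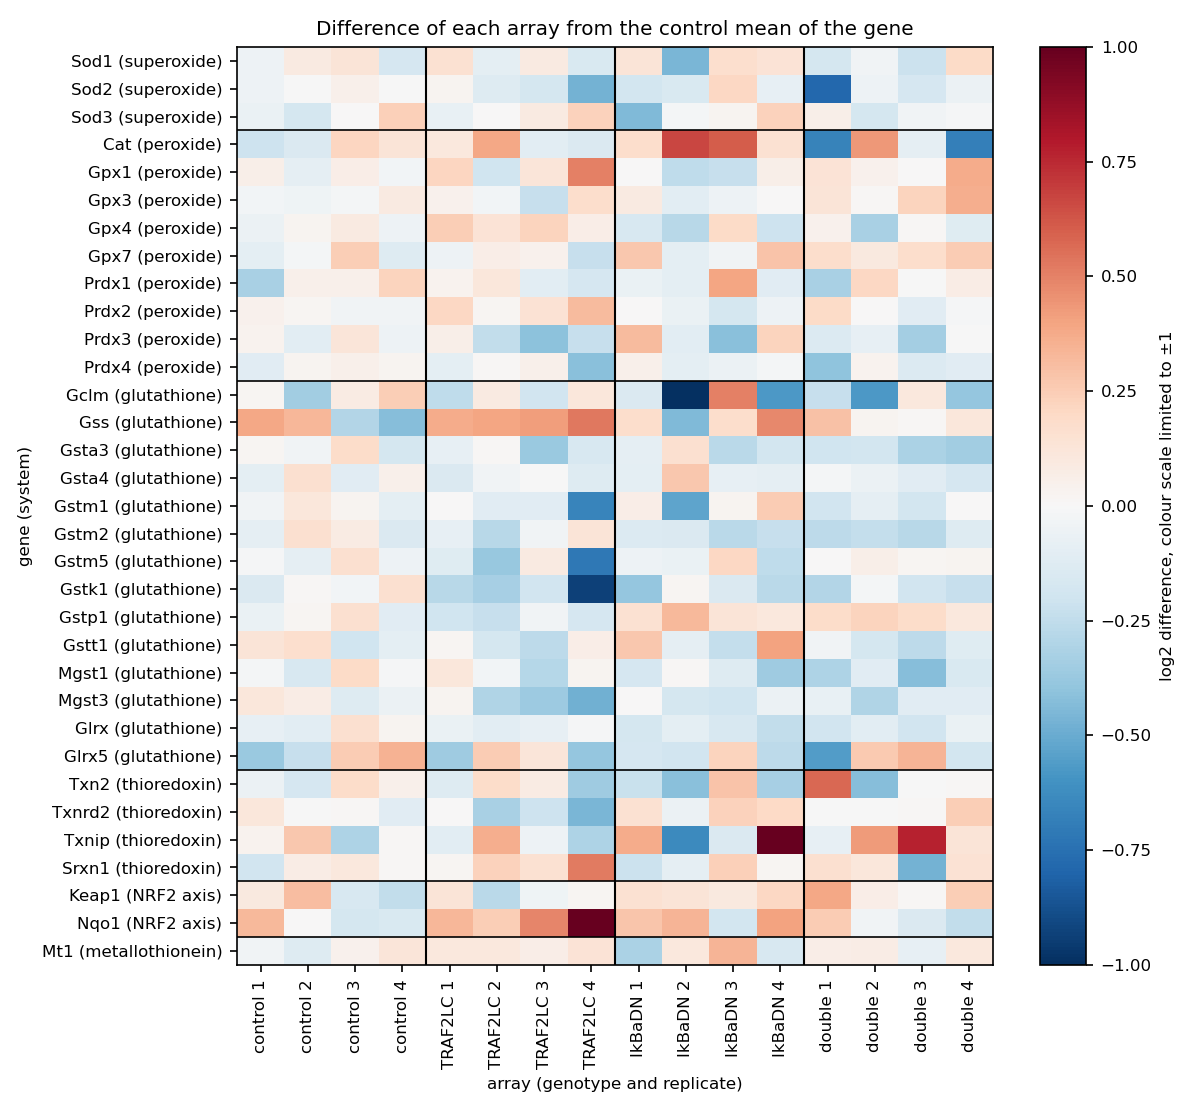
Difference of each array from the control mean of the gene on the log2 scale, for the 33 genes in rows and the 16 arrays in columns, with colours limited to ±1. TRAF2LC replicate 4 has the most genes beyond 0.3 either way, 10 below and 5 above.

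A selection of 5 genes for mitochondrial enzymes (Sod2, Prdx3, Txn2, Txnrd2 and Glrx5) was lower throughout in TRAF2LC hearts than in control, with a median of -0.19 and none called. The selection leaves out Gstk1, which was also lower. It leaves out Gpx1 and Gpx4 too, whose means were higher in TRAF2LC hearts than in control (12.56 against 12.40 and 10.63 against 10.46). Without TRAF2LC replicate 4, 3 of the 5 selected genes were lower and their median was -0.09. On that array the median of the 5 was -0.39, the lowest of any array. In IkBaDN and double transgenic hearts 3 of 5 were lower. Of 12 classic NRF2 targets in the list, 8 were measured and 2 were higher and 6 lower in TRAF2LC, 3 higher and 5 lower in IkBaDN and 1 higher and 7 lower in double transgenic hearts. Their medians were -0.07, -0.01 and -0.07, and none passed. In bulk tissue, a change in the number of cells of a type and a change in RNA per cell cannot be told apart.

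A further list of 55 NRF2 targets and antioxidant genes had 31 measured. Lower than control were 21, 19 and 23 of the 31 in TRAF2LC, IkBaDN and double transgenic hearts, with medians of -0.09, -0.03 and -0.17. Over all genes the medians were -0.01, -0.01 and -0.00, so the list lay lower in TRAF2LC and double transgenic hearts and close to all genes in IkBaDN hearts. It is not separate from the glutathione system, since it holds transferases such as Gstm6, Gsto1, Gstz1 and Gstt2. On single arrays the median of the 31 ran from -0.01 to 0.03 on controls and from -0.20 to 0.04 on transgenic arrays. Sqstm1, which encodes p62, a receptor of selective autophagy that binds KEAP1, was the only one of the 31 called in any comparison. The call was in TRAF2LC against IkBaDN hearts, 1 of 31 where 3.61% of all genes were called, a share near the background. It read 11.11, 11.29, 11.01 and 11.21 on control arrays, 11.34, 11.37, 11.34 and 11.64 on TRAF2LC arrays, 10.95, 10.84, 11.20 and 10.84 on IkBaDN arrays and 11.22, 10.91, 10.90 and 10.88 on double transgenic arrays. All TRAF2LC arrays lay above all others, where 7.45%, 9.81% and 10.8% of all genes had no overlap with control, IkBaDN and double transgenic arrays. Sqstm1 was higher in TRAF2LC than in IkBaDN hearts by 0.46 ± 0.12 (adjusted p = 0.0418), and the difference of double transgenic from TRAF2LC hearts was -0.45 ± 0.12 (0.0535). The change against control was 0.26 ± 0.12 in TRAF2LC (0.436). Without TRAF2LC replicate 4 the difference from IkBaDN hearts was 0.39 (0.125), and 17 of 29 alternatives ended the call, with adjusted p from 0.0113 to 0.153 over all 29.

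The other named genes of that list did not pass. Tkt, transketolase of the pentose phosphate pathway that feeds NADPH supply, had a change of -0.66 ± 0.24 in TRAF2LC (adjusted p = 0.309) and an interaction of 0.75 ± 0.34 (0.793), which was 0.46 without the 2 dim IkBaDN arrays (0.841). Gpx8, of the endoplasmic reticulum, had -0.29 ± 0.13 in IkBaDN (0.601), and all 3 of its probes gave the same direction. Without the 2 dim IkBaDN arrays it was -0.05 (0.979). Msrb2, a mitochondrial methionine sulfoxide reductase, had -0.28 ± 0.11 in double transgenic hearts (0.353). Mafg, a small MAF partner of NRF2, had -0.33 ± 0.15 in double transgenic against IkBaDN hearts (0.852), which was 0.06 with median scaling, where the median of all genes was 0.35.

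Of 14 listed sources of superoxide and peroxide, such as the NADPH oxidase subunits, 5 were measured (Cyba, Ncf4, Rac1, Xdh and Maob) and none passed the test. Ncf4, a phagocyte oxidase subunit, read 5.92, 5.94, 5.61 and 6.24 on control arrays, 6.51, 6.44, 6.05 and 7.10 on TRAF2LC arrays, 6.22, 6.53, 6.04 and 6.35 on IkBaDN arrays and 5.97, 5.84, 5.89 and 6.14 on double transgenic arrays. Its lower values lie near the limit of detection, which was 5.40 to 5.81 across arrays. Its difference in double transgenic against TRAF2LC hearts was -0.56 ± 0.19 (adjusted p = 0.124), and -0.37 without TRAF2LC replicate 4 (0.321). That against IkBaDN hearts was -0.32 ± 0.19 (0.866), and its interaction was -0.92 ± 0.26 (0.381). TRAF2LC replicate 4 was highest here too, and on it the median of the 5 genes was 0.67 beside 0.99 for the macrophage markers, whose part was not tested.

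Maob, monoamine oxidase B, which forms hydrogen peroxide at the outer mitochondrial membrane, read 9.12, 9.23, 9.21 and 9.29 on control arrays, 8.74, 8.81, 8.78 and 8.62 on TRAF2LC arrays, 9.12, 9.03, 8.64 and 9.37 on IkBaDN arrays and 8.83, 8.91, 8.97 and 8.65 on double transgenic arrays. TRAF2LC and double transgenic arrays lay below every control. The change was -0.48 ± 0.13 in TRAF2LC (adjusted p = 0.129), -0.37 ± 0.13 in double transgenic hearts (0.274) and -0.30 ± 0.13 for TRAF2LC against IkBaDN (0.252), or -0.51 without the 2 dim IkBaDN arrays (0.0670). Without IkBaDN replicate 3 the first of these passed (0.0471), and without both dim IkBaDN arrays it was 0.0410. Cyba, the shared membrane subunit of the oxidases, read 10.02, 10.01, 10.05 and 9.97 on control arrays against 10.35, 10.34, 10.23 and 10.38 on IkBaDN arrays, a change of 0.31 ± 0.12 (0.465). Against control, 1, 1 and 3 of the 5 genes had no overlap in TRAF2LC, IkBaDN and double transgenic hearts, beside 7.45%, 5.40% and 9.04% of all genes. In double transgenic hearts the 3 were Maob, below every control, and Cyba and Xdh, above every control.

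Beyond genotype, the position of an array in the deposited table went with some genes. The table's first 8 and last 8 sample columns held 2 arrays of each genotype, and 5 of the 33 genes differed between these sets after adjustment, against 12.1% of all genes. Glrx5, mitochondrial glutaredoxin, was higher in the last 8 by 0.52 (adjusted p = 0.00185) and Cat by 0.46 (0.0117). Gss differed by -0.35 (0.0387), Gstt1 by -0.30 (0.00870) and Keap1 by -0.24 (0.0316). The labels do not say what the sets stand for. Within the first and the last 8 columns the change in TRAF2LC against control was 0.62 and 0.53 for Nqo1 and -0.54 and -0.33 for Gstk1, and TRAF2LC against IkBaDN was -0.31 and -0.36 for Gstp1 and -0.40 and -0.35 for Txnrd2. For Gss the change in TRAF2LC was 0.09 and 0.76, and for Cat in double transgenic hearts -0.50 and 0.00.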

How the data were processed

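Total RNA of 16 left ventricles had been hybridized to 1-colour Illumina mouse arrays, per the labels. The deposited table holds a bead intensity per probe and array, with background already subtracted by the authors (14378 probes lie below 0 on at least 1 array), with a detection p-value that the authors deposited beside each. A deposited matrix holds the same intensity values scaled to an array mean of 276. BeadStudio and GenomeStudio are named without versions, per the submitters' processing notes. No deposited value is on a log2 scale: log2 was taken here.

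The intensity table was corrected with nec of limma 3.58.1 (R 4.3.3; background from the detection p-values, offset 16), put on the log2 scale and quantile normalized. A probe was tested if 4 or more of 16 arrays had detection p below 0.01, which left 9449 probes and 6902 named genes. One limma fit of the 4 genotype means over all arrays, moderated by eBayes (residual degrees of freedom 12, prior 4.64), gave each comparison, and an F test gave any difference among genotypes. P-values were two-sided and adjusted by Benjamini-Hochberg over all tested probes, and an adjusted p under 0.05 is a call. Changes are differences of log2 means ± limma standard errors, and 95% intervals come from the same fit. Since 1 spread is fitted over the 4 genotypes, errors understate a comparison that involves a more variable genotype. Levels of different probes were not compared. The number of arrays limits the precision.

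Each gene stands for the brightest of its tested probes, and genes whose other probes differ in direction or call are named. The column sets and the motif of small MAF sites were added after the data had been seen. Called genes are named, and where fewer than 3 passed the genes of smallest p up to 3. In each system the gene of smallest F test p is given array by array, and of the 2 further lists the called genes or the gene of smallest p. Genes, lists and tests were chosen with earlier results of these data known. The script was checked on simulated data. Symbols came from the probe table, and RefSeq changed 0 of those used here. Alternatives were the background offset, no background correction, median scaling, the authors' scaled values, 2 filters, leaving out arrays, 3 blocks, array weights, the mean of probes and a fit of only the compared genotypes.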

Additional observations from a re-analysis of the deposited data

Results flagged for a closer look

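Among 140 sets of 4 arrays (1 gene or probe in 1 genotype), 10 held an array whose gap to its nearest neighbour, as a share of the range of the 4, was above Dixon's 95% critical value. Chance alone gives such a gap in about 1 of 20 sets.

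In the superoxide system, Sod2 read 11.21 on double transgenic replicate 1 against 11.83 to 11.95 on the other 3 arrays of that genotype, and Sod1 read 11.36 on IkBaDN replicate 2 against 11.95 to 11.99. Prdx1 read 11.37 on IkBaDN replicate 3 against 10.86 to 10.91. Gsta4 read 10.31 on IkBaDN replicate 2 against 9.94 to 9.97. Txnrd2 read 8.72 on double transgenic replicate 4 against 8.47 to 8.49.

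Both Srxn1 probes had such arrays. Its brighter probe read 6.88 on double transgenic replicate 3 against 7.46 to 7.51. The dimmer probe read 5.51 on double transgenic replicate 2 against 6.14 to 6.26, and 5.62 on IkBaDN replicate 2 against 5.80 to 5.82. Sqstm1 read 11.64 on TRAF2LC replicate 4 against 11.34 to 11.37, and 11.22 on double transgenic replicate 1 against 10.88 to 10.91. Of the 10, 3 lay on IkBaDN replicate 2, the dimmest array.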

How the results depend on the processing

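The count of 0 genes called held under every alternative in each comparison with control, in double transgenic against IkBaDN, in the interaction and in the test of any difference. In double transgenic against TRAF2LC hearts it became 1 (Gstp1) with an offset of 50, with probes detected on all 16 arrays and with the mean of a gene's probes. In TRAF2LC against IkBaDN hearts it became 1 (Gstp1) with an offset of 50, with the all-array filter and with the column sets as a block, and 1 (Txnrd2) with array weights; leaving out 1 array gave 0 to 1.

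Median scaling moved the median of the 33 genes to 0.08 in TRAF2LC hearts, -0.29 in IkBaDN hearts and 0.06 in double transgenic hearts against control, 0.32 in double transgenic and 0.35 in TRAF2LC against IkBaDN, and 0.24 in the interaction, where all genes moved to 0.13, -0.23, 0.11, 0.35, 0.36 and 0.22. The authors' scaled values gave 0.00 in TRAF2LC against control and 0.02 against IkBaDN. Leaving out 1 array gave -0.08 to -0.01, -0.06 to -0.01, -0.11 to -0.04, -0.07 to -0.02, -0.03 to 0.02, -0.11 to 0.00 and 0.00 to 0.08 for the medians in TRAF2LC, IkBaDN and double transgenic against control, double transgenic against TRAF2LC and against IkBaDN, TRAF2LC against IkBaDN and the interaction. Median scaling reversed Mafg in double transgenic against IkBaDN (0.06), and Gstp1 (0.01), Txnrd2 (0.05) and Maob (0.13) in TRAF2LC against IkBaDN; none of these values passed, and relative to all genes they were -0.29, -0.35, -0.31 and -0.24, the direction reported. Sod2 in IkBaDN against control (-0.05) was 0.02 with the runs of P numbers in the descriptions as a block. These runs were uneven across genotypes. No TRAF2LC array lay in the run of lowest numbers, no double transgenic array in the middle run and no IkBaDN array in the highest. Both dim IkBaDN arrays lay in the lowest run. Genotype and run are thus partly confounded, also in the comparisons with IkBaDN hearts.

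The calls of the dimmer Srxn1 probe and of Sqstm1 in TRAF2LC against IkBaDN were lost in 11 of 28 and 17 of 29 alternatives. Of all tested probes, 98 were called in TRAF2LC against control; this became 54 without a filter, 60 with the all-array filter, 35 with only the compared genotypes fitted and as few as 40 without 1 array. The 42 called in IkBaDN against control became 18 with median scaling and also without the 2 dim IkBaDN arrays, 24 with only the compared genotypes, 65 with array weights and as few as 21 without 1 array. The 86 of double transgenic against control became 26 with median scaling, 168 with array weights and as few as 42 without 1 array. The 281 of double transgenic against TRAF2LC became 120 with median scaling, 155 with only the compared genotypes and 184 without double transgenic replicate 3. The 325 of TRAF2LC against IkBaDN became 573, 124 and, without the dim arrays, 135, and 204 or 213 without TRAF2LC replicate 4 or IkBaDN replicate 2. The single call in double transgenic against IkBaDN became 0 to 4, the 2 of the interaction up to 18 (array weights), and the 280 of any difference 422 with the column sets as a block. The cause of these moves was not tested.

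The replicate numbers of the titles were not taken as pairs, since not every same-numbered pair correlated above 0.1: 16 of 24 did, in a range from -0.29 to 0.41, and in 13 the first array correlated best with its own number, a hint from the data and not the design. All pairs of numbers 1 and 3 were above 0.1, and each of these numbers lies within 1 column set. With the number as a block, 0 of the 33 genes were called in each comparison, Sqstm1 in TRAF2LC against IkBaDN had an adjusted p of 0.0600, and Ncf4 in double transgenic against TRAF2LC had 0.0339. The fit of only the compared genotypes has no value for the interaction or for any difference, and Cat and the dimmer Srxn1 probe have none with the all-array filter. Dim signal limits Cat, Gclm, Gss, Ncf4 and the dimmer Srxn1 probe.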
